A study of Mus musculus with 8 samples.

Results

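Secreted host defence factors of the airspace were followed in embryonic mouse lung through 9 genes: the lysozymes Lyz1 and Lyz2, the lipocalin Lcn2, the chitinase-like gene Chil1, the resistin-like gene Retnla, complement component C5 (Hc), the cytokine Il33, the chemokine Cxcl15 and the protease inhibitor Slpi. Members were taken by gene symbol, as every probe set annotated to exactly 1 of these names. All 9 were on the E18.5 array, with 12 of its 45037 probe sets, among 18193 named genes. On the older E11.5 array 5 of them (Lyz2, Lcn2, Chil1, Hc and Slpi) had 10 of 12422 probe sets, among 8251 named genes. The samples were whole lungs of FVB/N embryos at E18.5, 3 single transgenic controls and 3 double transgenic (bitransgenic) MIA overexpressors, and a lung and a trachea of FVB/N embryos at E11.5, with 1 array each. MIA is a secreted protein first known from melanoma and cartilage, and the design asked how its misexpression alters gene expression in the lung at E18.5. The labels call the E18.5 groups an SP-C/MIA control and overexpressor, where SP-C names surfactant protein C, the product of alveolar type II cells. Which transgene the controls carried, and whether an inducing agent was given, are not given in the sources used here.

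The fluid that lines the airspaces carries proteins made by type II cells, airway secretory cells and resident or recruited leukocytes. Lysozymes cleave the peptidoglycan of bacterial walls, and lipocalin 2 binds bacterial siderophores and so withholds iron. C5 is cleaved into an inflammatory peptide and the starter of the membrane attack complex. IL-33 is a nuclear alarmin released from damaged cells, CXCL15 (lungkine) is a neutrophil-attracting chemokine best known from lung epithelium, and SLPI inhibits neutrophil elastase.

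The signal of each probe set is a MAS5 intensity, a linear brightness, and the deposited arrays share a trimmed mean of 1500. The medians of the E18.5 arrays ran from 415 to 464 and the highest signal on an array from 101373 to 124807. Mia read between 734 and 1071 in the controls and between 31399 and 42666 in the bitransgenic lungs, in keeping with the labels of the groups. Sftpc, the marker of type II cells, read between 72239 and 93285 in all 6 lungs. Signals this near the highest on an array may not follow RNA amount in proportion, which was not tested. The Actb 3' to 5' signal ratio, a sign of RNA quality, had a median of 1.47 in the controls. All controls were below the 1.51 to 1.65 of the bitransgenic lungs, so that it differed between the groups compared throughout. The gap was narrow, from 1.501 in control 1 to 1.506 in bitransgenic 2. The Gapdh ratio was 0.781 to 0.921 in the controls and 0.921 to 1.08 in the bitransgenic lungs, and its groups overlapped. In whole lung, fewer cells of a type and less RNA per cell cannot be told apart.

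Of the 9 genes, all of which passed the filter on low signals, 8 fell in the bitransgenic lungs, none rose, and Slpi did not pass the test. The fall in mean signal ran from 1.75-fold for Lyz1 to 9.76-fold for Hc. Among all 12625 genes tested, limma (adjusted p under 0.05) called 0.436% lower and 0.238% higher. The median log2 difference of the 9 genes was -1.77, beside 0.01 over all genes tested. The 9 genes were chosen with earlier results of these data known, so these contrasts describe the chosen genes and are no test of their class. Every bitransgenic lung lay below every control for the same 8 genes, as it did for 7.56% of all genes tested. On the single probe set level 11 of 12 were called lower, against 0.281% of the 27022 probe sets tested, although probe sets of 1 gene are not independent. The 11 include 1 dim Lyz1 probe set that passed the filter through its controls alone, whereas for the probe set that stood for each gene both group means were above the filter. Ranked by size of fall over all genes tested, Hc was 5, Lcn2 7, Retnla 10, Chil1 13, Il33 20, Lyz2 36, Cxcl15 70 and Lyz1 130. An exact permutation test of 3 arrays against 3 cannot go below p = 0.1, and each of the 8 genes reached that value.

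**Figure D1:**
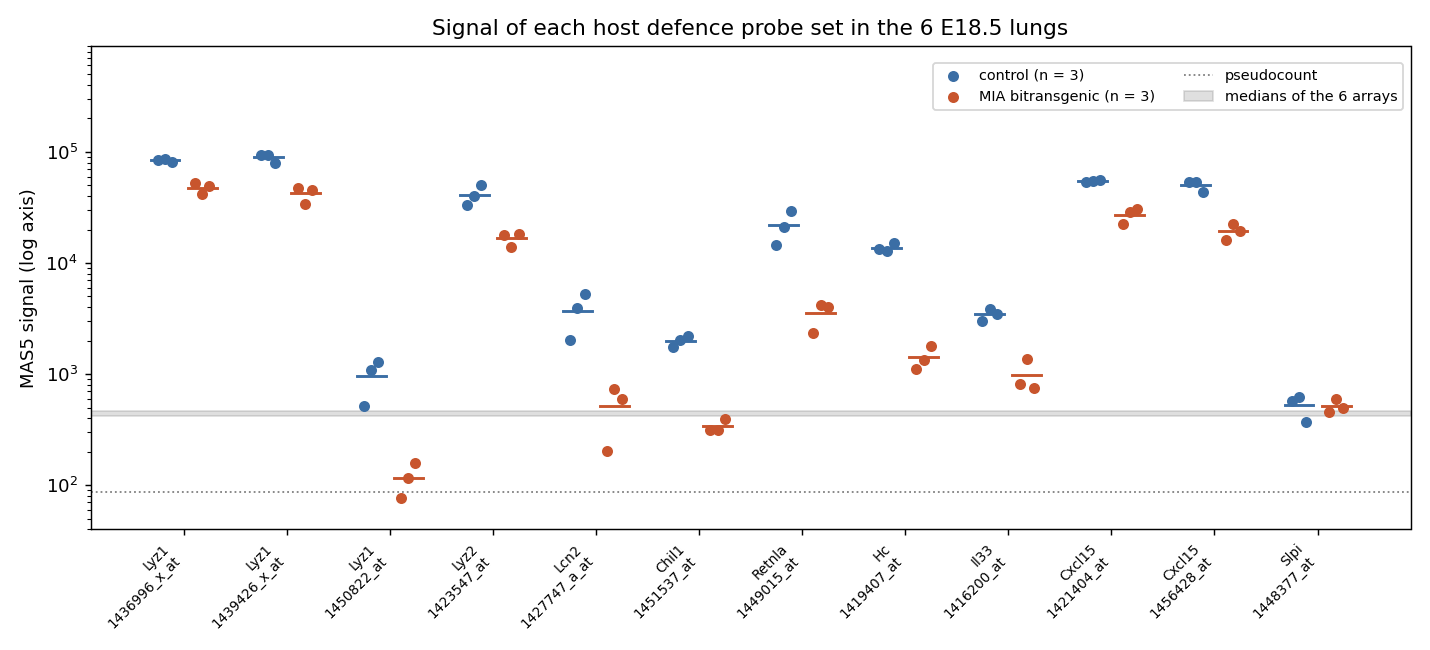
MAS5 signal (log axis) of the 12 probe sets of the 9 genes in each E18.5 lung, with a bar at each group mean (3 controls in blue, 3 bitransgenic lungs in red); the grey band spans the array medians of 415 to 464 and the dotted line is the pseudocount of 86.4. The groups are apart for 11 probe sets and overlap for Slpi.

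The sequences upstream of the lysozyme genes are shown first because these are neighbouring copies. These bases lie before the start site, so they do not show whether the probe sets of Lyz1 and Lyz2 share probes, which was not tested. Lyz2 lies on chromosome 10 from 117277541 to 117282272 and Lyz1 from 117287795 to 117292868 (GRCm38, RefSeq), both on the minus strand and 5522 bases apart. RefSeq promoter windows (GRCm38.p6) were found for all 9 genes, 10 in number with 2 for Il33, and the 250 bases before the start site were used, at chr10:117292869-117293118 for Lyz1 and chr10:117282273-117282522 for Lyz2. A global alignment of the windows gave 79.4% identity, with 200 identical positions in 252 columns. Capitals mark the longest run that is the same in both, the 50 bases next to the start site.
Lyz1: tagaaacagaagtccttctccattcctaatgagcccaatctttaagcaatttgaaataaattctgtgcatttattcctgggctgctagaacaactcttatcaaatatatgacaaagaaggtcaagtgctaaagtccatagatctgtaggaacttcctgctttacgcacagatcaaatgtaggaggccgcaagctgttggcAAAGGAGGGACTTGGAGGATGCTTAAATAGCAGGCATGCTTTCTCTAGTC
Lyz2: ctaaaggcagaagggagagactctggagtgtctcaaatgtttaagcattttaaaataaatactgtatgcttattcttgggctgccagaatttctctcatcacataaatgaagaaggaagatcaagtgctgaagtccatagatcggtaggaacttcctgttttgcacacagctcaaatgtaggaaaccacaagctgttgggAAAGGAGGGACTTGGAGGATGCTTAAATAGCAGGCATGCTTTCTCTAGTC

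Lyz1 and Lyz2 both fell. The Lyz2 probe set read 33178, 39847 and 50615 in the controls, against 17989, 14022 and 18247 in the bitransgenic lungs. Means were 41213 ± 8798 (SD, n = 3) and 16752 ± 2368 (SD, n = 3), a log2 difference of -1.28 (95% interval -1.66 to -0.90, limma adjusted p = 0.00946). The groups did not overlap, and the lowest control was well above the highest bitransgenic lung. Lyz2 is the lysozyme of macrophages and type II cells, whereas Lyz1 is best known from Paneth cells of the intestine. The Lyz1 probe set with the highest mean over the 6 arrays, which stood for the gene, read 84181, 86169 and 81079 in the controls, against 52242, 41474 and 49617 in the bitransgenic lungs, a log2 difference of -0.82 (95% interval -1.06 to -0.57, limma adjusted p = 0.0105).

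The 3 Lyz1 probe sets all fell, but by different amounts. The other bright probe set read 93086, 94743 and 80161 against 47351, 34329 and 45669, a log2 difference of -1.08. The dim probe set read 518, 1079 and 1276 against 75.9, 115 and 158, so that the bitransgenic lungs were near the pseudocount of 86.4, the constant added to every signal before taking logarithms. Its bitransgenic mean of 116 was under the filter level, a signal of about 251, so that it was tested only through its control signals, and its log2 difference of -2.30 (95% interval -3.01 to -1.60) and its call carry that limit. Both bright probe sets carry the suffix x_at, which the manufacturer gives to sets with probes that match other transcripts as well, and the dim one does not. The share of Lyz2 signal in the bright sets was not tested, nor was a limit of scale at their high signals. The size of the Lyz1 fall depended on the probe set used, and the mean over its probe sets gave a log2 difference of -1.40.

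Hc had the largest fall of the 9 genes. It encodes C5 and lies on chromosome 2 from 34983329 to 35068506. The arrays measure RNA, and whether these FVB/N lungs make working C5 protein was not tested. The controls read 13389, 12913 and 15021 and the bitransgenic lungs 1100, 1328 and 1807. Signal fell from 13774 ± 1106 (SD, n = 3) to 1412 ± 361 (SD, n = 3), which left 10.2% of the control level, with a log2 difference of -3.23 (95% interval -3.63 to -2.83, limma adjusted p = 3.73e-05). The spread within either group was small beside this difference, and the bitransgenic lungs were still above the array medians.

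Lcn2 and Slpi are both products of inflamed epithelium and of neutrophils, and only Lcn2 was called. Lcn2 (chromosome 2, 32384637 to 32387739) read 2012, 3898 and 5264 in the controls, against 205, 741 and 591 in the bitransgenic lungs. The log2 difference was -2.70 (95% interval -3.64 to -1.76, limma adjusted p = 0.0232). It was the most variable of the called genes, with a coefficient of variation of 43.8% among controls and 54.0% among bitransgenic lungs, yet the highest bitransgenic value was below the lowest control. Slpi (chromosome 2, 164354070 to 164356507) read 574, 627 and 371 in the controls, against 455, 603 and 495 in the bitransgenic lungs. The log2 difference was 0.00 with a 95% interval of -0.50 to 0.50 (limma adjusted p = 0.999). The groups overlapped, and the sign turned with median centring (-0.017) and quantile normalization (-0.014). Its signal lay close to the array medians in all 6 lungs.

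Chil1 and Retnla belong to families of lectin-like and hormone-like secreted proteins that are induced in allergic and parasite-driven inflammation. Chil1 (chromosome 1, 134182156 to 134190031), a chitinase-like protein that binds chitin without cleaving it, read 1744, 2010 and 2197 in the controls, against 315, 316 and 396 in the bitransgenic lungs. All bitransgenic signals were below the medians of their arrays and all controls above. The log2 difference was -2.27 (95% interval -2.64 to -1.90, limma adjusted p = 0.00025). Retnla (chromosome 16, 48842609 to 48844461), which encodes resistin-like alpha, read 14603, 21142 and 29624 against 2339, 4213 and 4054. The controls were spread, with a coefficient of variation of 34.6%, but none came near the bitransgenic values. The log2 difference was -2.58 (95% interval -3.21 to -1.95, limma adjusted p = 0.00337).

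The cytokine Il33 and the chemokine Cxcl15 both fell. Il33 (chromosome 19, 29925113 to 29960718) read 2975, 3892 and 3490 in the controls, against 812, 1370 and 753 in the bitransgenic lungs, a log2 difference of -1.77 (95% interval -2.26 to -1.28, limma adjusted p = 0.00738). The bitransgenic lungs kept 28.3% of the control mean. Cxcl15 (chromosome 5, 90794534 to 90803067) had 2 probe sets. The brighter read 53402, 54326 and 55961 against 22502, 28701 and 30432, a log2 difference of -1.01 (95% interval -1.30 to -0.73, limma adjusted p = 0.00801). The other read 53170, 53214 and 43303 against 16121, 22532 and 19368, a log2 difference of -1.37 in the fit over probe sets (limma adjusted p = 0.00438). Both probe sets thus showed the fall, to 49.9% and 38.8% of the control mean.

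**Figure D2:**
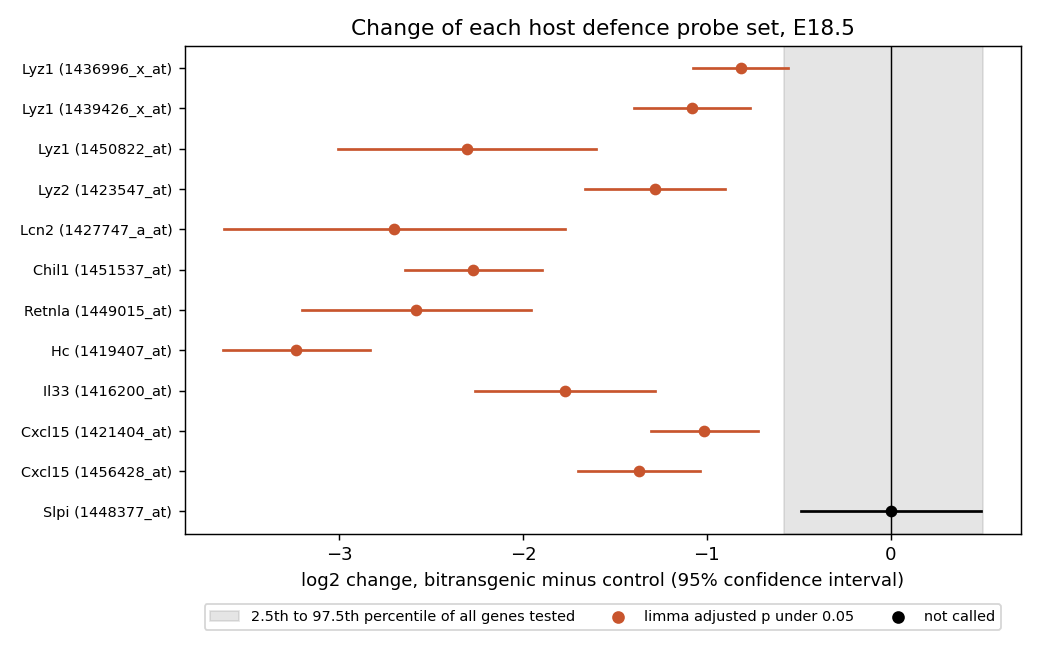
Log2 change (bitransgenic minus control) of each of the 12 probe sets with its 95% confidence interval, from the limma fit over all probe sets; red marks limma adjusted p under 0.05 and the grey band holds the central 95% of all genes tested, -0.58 to 0.50. The changes of the 11 called probe sets lie below the band, from -0.82 to -3.23, and Slpi lies at 0.00.

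The 95% intervals of the falls were set side by side. The interval of Hc (-3.63 to -2.83) lay wholly below those of Chil1, Il33, Lyz2, Cxcl15 and Lyz1, and that of Chil1 (-2.64 to -1.90) below those of Lyz2, Cxcl15 and Lyz1. The place of Lyz1 holds for its bright probe sets alone, since the interval of the dim one (-3.01 to -1.60) overlaps that of Hc and spans that of Chil1. Intervals of Hc, Lcn2 and Retnla overlapped, so their order is not resolved. No direct test between genes was made.

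Among the controls the genes shared a pattern. Control 3 had the highest signal of its group for 6 of the 9 genes and control 1 the lowest for 6, among them Lyz2, Lcn2, Chil1 and Retnla for both. Over all genes tested control 3 was highest for 45.1% and lowest for 38.8%, and control 1 was lowest for 37.9%. Sftpb read 11620 and 14704 in controls 1 and 2 and 42045 in control 3, against 4204, 4635 and 5665 in the bitransgenic lungs. Control 3 also had the lowest Actb ratio, 1.28. Bitransgenic 1 had the lowest signal of its group for 6 genes, as it did for 34.3% of all genes tested. The part of RNA quality in these differences was not tested.

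The falls were read again under other settings. Hc, Chil1 and Retnla passed in all 16 alternative fits, and all 8 genes kept a negative change in each of them. Without control 2 only these 3 passed, and the others had limma adjusted p = 0.0905 (Lyz1), 0.0611 (Lyz2), 0.109 (Lcn2), 0.0535 (Il33) and 0.0607 (Cxcl15). Without bitransgenic 3 the limma adjusted p was 0.0504 for Lyz1 and for Lyz2 and 0.101 for Lcn2, and without control 3 it was 0.0523 for Lcn2. With the Actb ratio as a covariate 4 genes passed, Lyz1, Hc, Chil1 and Retnla. There the log2 change was -1.10 for Lyz2 (limma adjusted p = 0.233), -1.72 for Lcn2 (limma adjusted p = 0.391), -1.48 for Il33 (limma adjusted p = 0.171) and -0.91 for Cxcl15 (limma adjusted p = 0.157). With no filter, and with no intensity trend, 6 genes passed, and Lyz1 (limma adjusted p = 0.0634 and 0.0646) and Lcn2 (limma adjusted p = 0.0565 and 0.0526) did not.

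**Figure D3:**
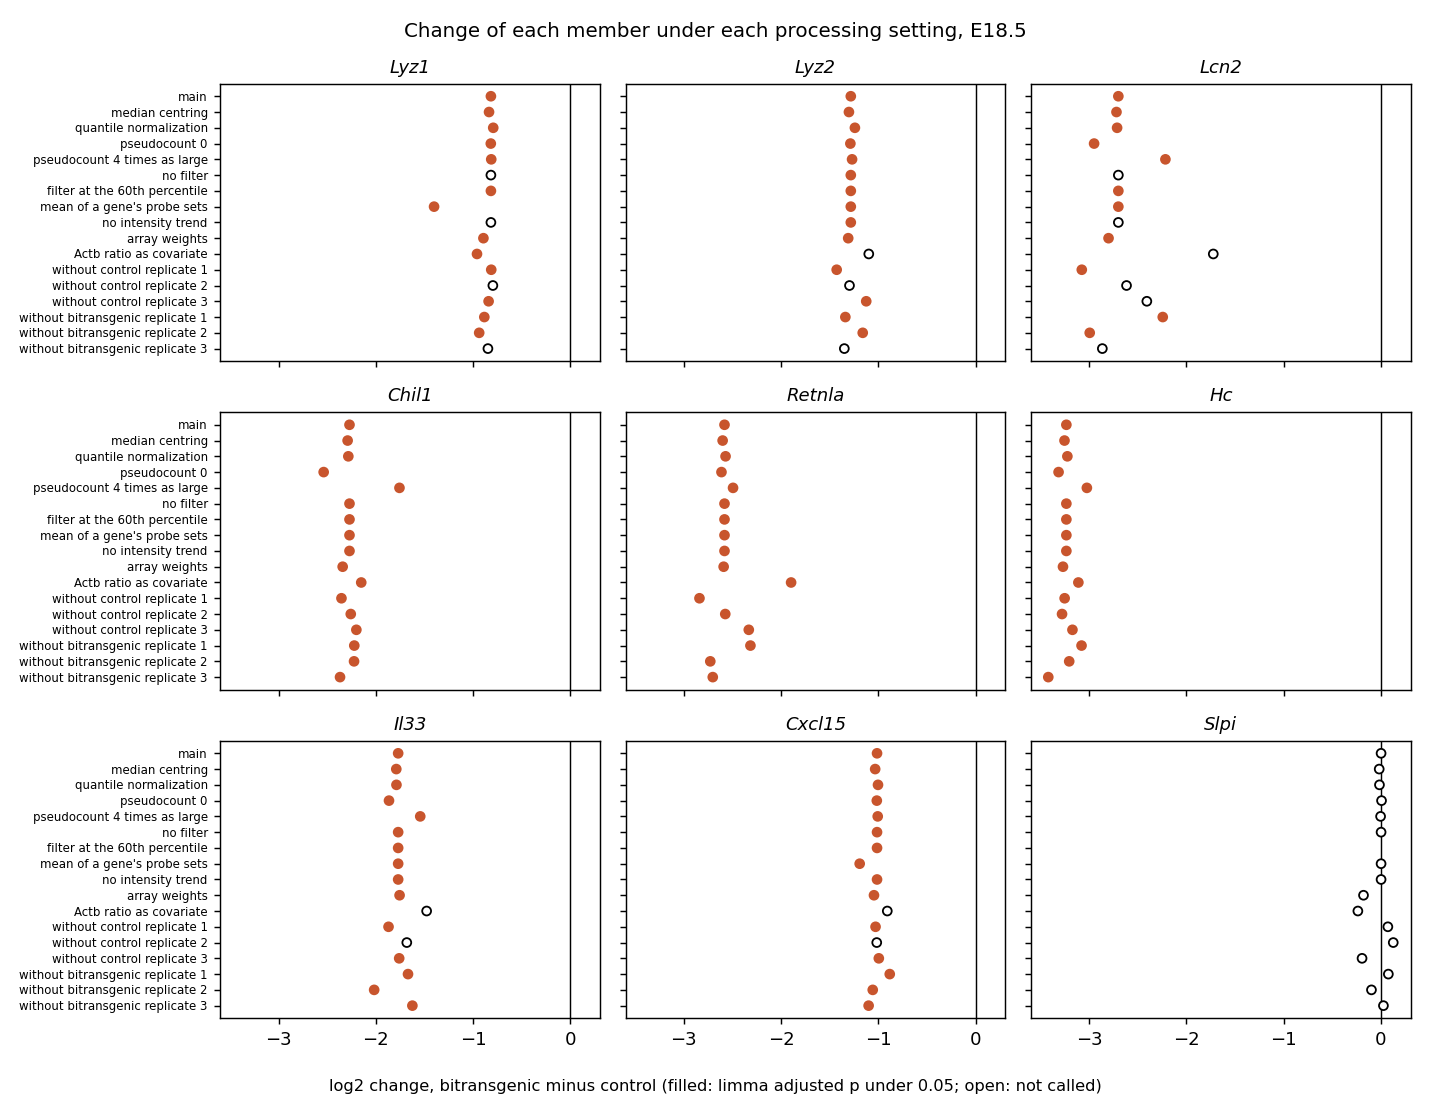
Log2 change (bitransgenic minus control) of each of the 9 genes under the main setting and 16 alternatives; filled points have a limma adjusted p under 0.05 and open points do not. Hc, Chil1 and Retnla are filled throughout, Lcn2 moves most, from -3.08 to -1.72, and Slpi stays near 0.

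Receptors and targets of these proteins were mostly at low signal. Of 13 listed, 10 were on the array and 4 passed the filter on low signals. The median change of those 4 was -0.02, and 1 of them fell. Lrp2, the endocytic receptor megalin, which takes up lipocalin 2, fell, with a control mean of 833 ± 74.1 (SD, n = 3) against 245 ± 56 (SD, n = 3) and a log2 difference of -1.48 (limma adjusted p = 0.0111). Its bitransgenic mean was just under the filter level of about 251. Slc22a17, the other lipocalin 2 receptor, had a log2 difference of 0.13, Il1rap, the shared co-receptor of IL-33, of 0.02, and Tmem219, a receptor described for CHIL1, of -0.06, and none of these passed. Cxcr2, the C5a receptor gene C5ar1 and the neutrophil proteases Elane, Ctsg and Prtn3 were below the filter.

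No family relative of the members passed the test. Of 23 listed, 22 were on the array and 9 passed the filter, with a median of 0.20. Chia1, the acidic chitinase, had a control mean of 6966 ± 1396 (SD, n = 3) against 9151 ± 963 (SD, n = 3) and a log2 difference of 0.40 (limma adjusted p = 0.47). Chil3, the chitinase-like gene of alveolar macrophages, had a log2 difference of 0.20 and Wfdc2, a whey acidic protein like Slpi that is made by airway epithelium, of 0.01. Wfdc1 had -0.83 (limma adjusted p = 0.446) and Ptgds 0.32 (limma adjusted p = 0.551). Whether a member and its relative differed in their change was not tested.

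Of the complement genes other than Hc, 1 fell. Of 34 listed, 27 were on the array and 19 passed the filter, with a median of -0.10. The gene that fell was C6, a later part of the membrane attack complex to which C5b binds, which had a control mean of 3247 ± 1086 (SD, n = 3) against 973 ± 400 (SD, n = 3) and a log2 difference of -1.67 (limma adjusted p = 0.0409). Cd55, which protects cells from complement, had a log2 difference of -0.49 (limma adjusted p = 0.248) and Cfp, encoding properdin, of 0.40 (limma adjusted p = 0.46).

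Other secreted proteins of the airway lining included further falls. Of 27 listed, 25 were on the array and 14 passed the filter, with 2 falls and a median of -0.33. Sftpa1, the collectin surfactant protein A, had a log2 difference of -4.45 (limma adjusted p = 1.06e-06), and Rnase4, a secreted ribonuclease, also fell, with a control mean of 19176 ± 1171 (SD, n = 3) against 6610 ± 890 (SD, n = 3) and a log2 difference of -1.53 (limma adjusted p = 0.000819). Sftpd, the collectin surfactant protein D, read 19217 ± 2202 (SD, n = 3) against 11345 ± 1467 (SD, n = 3) and just missed the threshold (log2 change -0.76, limma adjusted p = 0.051).

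No gene was called among 6 tested cytokines, 15 chemokines, 16 protease inhibitors, 13 NF-kB pathway genes or 14 transcription factors. Their medians were -0.15, -0.15, -0.10, 0.09 and 0.11. Csf2, the growth factor GM-CSF, read 428 ± 171 (SD, n = 3) against 161 ± 98.2 (SD, n = 3) with overlapping groups, while Il16 and Il34 had log2 differences of -0.23 and -0.25. Among the chemokines Cxcl14 had -0.57 (limma adjusted p = 0.481), Ppbp -0.50 (limma adjusted p = 0.606) and Ccl11, the eosinophil attractant eotaxin, 0.61 (limma adjusted p = 0.506). Among the inhibitors A2m had -1.46 (limma adjusted p = 0.122), Serpinf1 -0.91 (limma adjusted p = 0.149) and Serpinb9 -0.81 (limma adjusted p = 0.0897). Icam1, a target of NF-kB, had 0.36 (limma adjusted p = 0.308) with all bitransgenic lungs above the controls, and Nfkbiz (0.28) and Relb (0.33) had overlapping groups. The transcription factor genes Foxa1, Cebpa and Cebpb had 0.85, -0.87 and 0.33 (limma adjusted p = 0.0659, 0.143 and 0.434), each with groups that did not overlap.

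**Figure D4:**
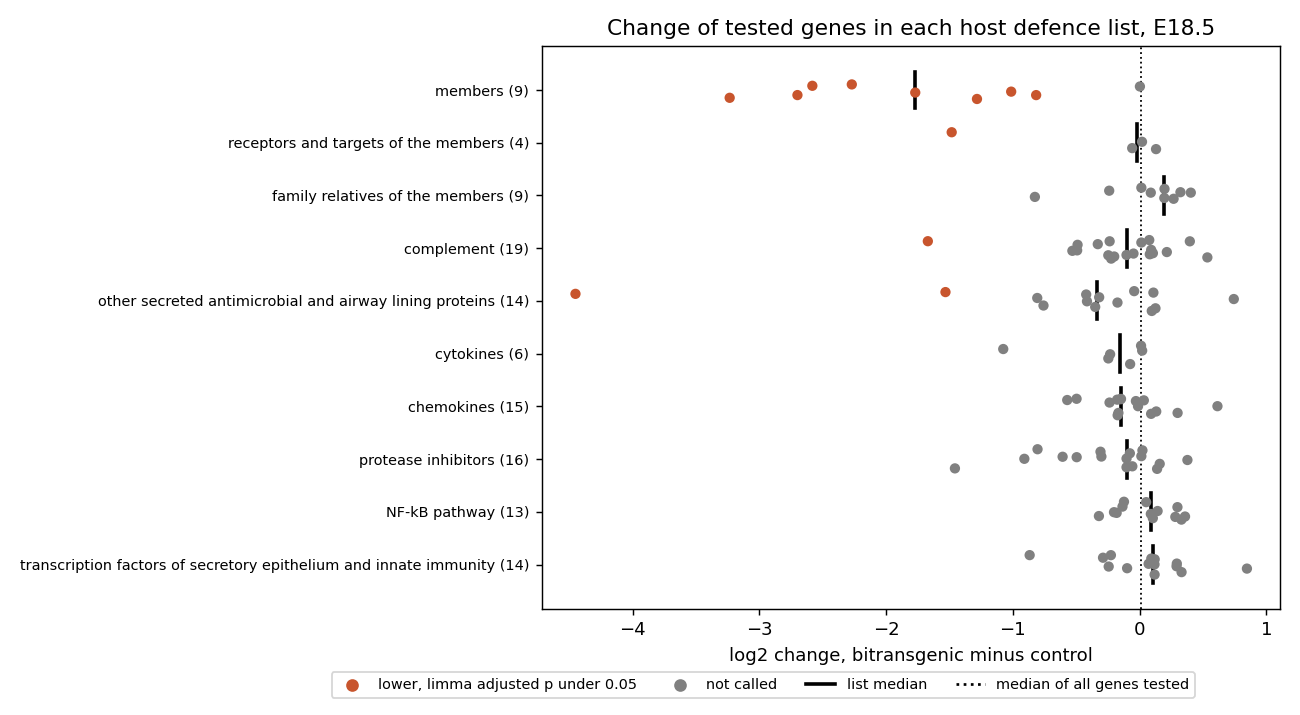
Log2 change (bitransgenic minus control) of each tested gene of the 9 members and of 9 related lists, with the list median as a black bar and the median of all genes tested, 0.01, as a dotted line; red points were called lower by limma. The members' median is -1.77, and the medians of the related lists lie between -0.33 and 0.20. Members and lists were chosen with earlier results of these data known.

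Markers of cells that can make these proteins were set beside the falls. All 11 type II markers on the array were above the pseudocount in every lung, 4 of them fell (Sftpa1, Lpcat1, Abca3 and Slc34a2), and the summed signal was 309658 to 352084 in the controls and 153543 to 198655 in the bitransgenic lungs. Of the 11, 8 had a negative log2 difference, while Sftpc (0.00), Etv5 (0.08) and Muc1 (0.10) did not and had overlapping groups. Sftpb (-1.99, limma adjusted p = 0.0692), Napsa (-1.02, limma adjusted p = 0.0558), Sftpd and Cebpa were lower in every bitransgenic lung and were not called. Among all 12625 genes tested, 5981 had a negative log2 difference. All 8 type I markers had a negative log2 difference (median -0.44), and 3 of them fell (Aqp5, Clic5 and Rtkn2). Of those not called, Pdpn (-0.36), Ager, Cav1 and Emp2 were lower in every bitransgenic lung, and Hopx (-0.15) had overlapping groups. The summed type I signals were 275908 to 297657 against 207484 to 234051. Club cell sums overlapped, at 160279 to 214725 against 143426 to 168814, and 7 of 8 markers had a negative log2 difference, with a median of -0.23. Scgb1a1 (-0.42), Hp (-0.32) and Aldh1a1 (-0.26) were lower in every bitransgenic lung and were not called, Cyp2f2 had -0.26 with overlapping groups, and Cckar rose (1.04, limma adjusted p = 0.0308). Endothelial markers were negative in 7 of 7 (median -0.40, none called), with sums of 65884 to 88848 in the controls and 48516 to 55562 in the bitransgenic lungs. Mast cell sums were 9159 to 13445 against 7244 to 7692 and erythroid sums 9647 to 14364 against 5412 to 7525, with no gene called in either list. The mast cell sum came mostly from Hdc (mean 6196 against 3486) and Kit (4230 against 2590), while Cpa3 (-0.11) and Cma1 (0.05) had overlapping groups. Only 1 erythroid marker was tested, Alas2 (11701 against 6541). Hba-a1 (34 against 88.4) and Epb42 (80.5 against 55.1) were below the filter. Mesenchymal sums overlapped, at 156332 to 198205 against 159505 to 194500. The part of these cell types in the falls of the 8 genes was not tested.

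No macrophage marker was called. The summed signal of 15 macrophage and monocyte markers was 48400 to 55914 in the controls and 45622 to 57051 in the bitransgenic lungs, with 13 genes tested and a median of -0.02. Csf1r, Adgre1 and Cd68, which define these cells, had log2 differences of 0.09, -0.02 and -0.15 (limma adjusted p = 0.923, 0.99 and 0.897). No neutrophil marker was called either. The summed signal of the 12 on the array was 5054 to 5480 in the controls and 3683 to 3903 in the bitransgenic lungs. All 6 tested had a negative log2 difference (median -0.39), from -0.81 for Ngp (limma adjusted p = 0.141) and -0.62 for Mmp9 (limma adjusted p = 0.514) to -0.02 for Mmp8. S100a8 read 947, 1088 and 1239 against 910, 656 and 819. S100a9 read 278, 283 and 320 against 131, 87.3 and 29.9, with groups that did not overlap. It was below the filter and so not among those tested, and without the filter its log2 difference was -1.21. Mpo, at 145 to 336 in the controls and 128 to 298 in the bitransgenic lungs, and Elane, at 45.3 to 114 and 42.4 to 218, were also below the filter. Of the 5 eosinophil markers none was above the pseudocount in all arrays of either group, with Prg2 and Epx among them, and Cd3e and Cd79a of lymphocytes were below the filter. The part of neutrophil content in the fall of Lcn2 was not tested.

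The genes whose log2 values followed a member most closely over the 6 arrays were named as a description. Clone-like and predicted gene symbols were left out, so nearest means nearest among the rest. Pearson's r is high for any gene that separates the groups, so it carries little beyond that separation. Hc was nearest to Tgoln1, Scd1 and Chil1 (r = 0.999, 0.997 and 0.996), and Chil1 to Fabp12, Hc and Zfp157 (0.997, 0.996 and 0.995). Retnla was nearest to Dact1, Garre1 and Podxl (0.998, 0.994 and 0.994) and Lcn2 to Stard8, Dact1 and Pla2r1 (0.996, 0.995 and 0.994). Cxcl15 was nearest to Rnase4, Nipal1 and Lrp2 (0.994, 0.992 and 0.992), Il33 to St3gal6, Col4a4 and S100g (0.997, 0.993 and 0.993), and Lyz2 to Ahnak2, Tnfrsf19 and Lipg (0.995, 0.993 and 0.993). Lyz1 was nearest to Ppp2r5a, Mcfd2 and Man2a1 (0.976, 0.976 and 0.974). Slpi, which did not separate the groups, was nearest to Tnnt2, Sypl and Ric8b (0.992, 0.988 and 0.970).

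Upstream sequences of members that fell together were searched for 4 motifs on both strands of the 250 bases before the start. The C/EBP pattern TTNNGNAA is of a factor family that acts in type II cells and in innate immunity. It was in 8 of the 10 windows, from 7 of the 9 genes, and in 36.9% of all 32841 RefSeq windows. No allowance was made for base composition, with G and C at 31.2% (Hc) to 56.4% (Lcn2) of the member windows. The C/EBP pattern was absent from the windows of Hc and Cxcl15 and present in that of Slpi, which was not called. The Hc window searched, chr2:35061413-35061662 on the minus strand, lies inside the span given for the gene, and the sequence beyond the far end of that span was not searched. The NF-kB pattern GGNNTTTCC (4.93% of all windows) and the STAT pattern TTCNNNGAA (7.02%) were in none of them. The NKX2-1 pattern CTCAAG (13.3%) was in that of Retnla alone, where it overlaps a C/EBP match. The windows of Retnla, with 3 C/EBP matches, and of Lcn2 and Chil1, with 1 each, are printed for the genes among the largest falls that hold a match, at chr16:48842359-48842608 (plus strand), chr2:32387740-32387989 (minus strand) and chr1:134181906-134182155 (plus strand). Capitals mark the matches, and a match describes letters only.
Retnla: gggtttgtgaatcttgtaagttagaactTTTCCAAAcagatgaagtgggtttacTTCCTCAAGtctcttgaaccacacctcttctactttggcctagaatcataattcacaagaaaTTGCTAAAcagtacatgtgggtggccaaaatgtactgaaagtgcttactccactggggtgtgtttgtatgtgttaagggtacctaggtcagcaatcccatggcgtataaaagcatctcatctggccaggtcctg
Lcn2: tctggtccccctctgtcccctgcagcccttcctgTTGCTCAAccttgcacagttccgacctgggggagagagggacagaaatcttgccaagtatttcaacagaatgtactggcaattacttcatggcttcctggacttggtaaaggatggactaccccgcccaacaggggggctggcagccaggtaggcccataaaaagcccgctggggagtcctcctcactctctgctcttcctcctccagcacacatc
Chil1: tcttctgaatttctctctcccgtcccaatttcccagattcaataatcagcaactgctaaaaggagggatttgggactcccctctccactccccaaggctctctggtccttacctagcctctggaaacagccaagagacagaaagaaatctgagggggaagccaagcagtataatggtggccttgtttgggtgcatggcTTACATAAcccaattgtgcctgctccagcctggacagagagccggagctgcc

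At E11.5, before the airspaces form, the members on the older array had low signals in both tissues. With 1 array per tissue there was no test. Of 10 probe sets only 1, of Slpi, was above the array medians of 541 and 545, and it read 1135 in lung and 964 in trachea (log2 ratio 0.22). The 3 other Slpi probe sets read 154, 436 and 202 in lung and 240, 521 and 157 in trachea, with the lung higher for 1 of them and lower for 2. Slpi and Lcn2 were the members past the filter. A gene was compared only where its higher signal was above the median, which left Slpi alone of the 5 members, and it was not over 2-fold apart, as 3.42% of the 5114 genes compared were.

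The other members read below the medians of the E11.5 arrays. Lcn2 read 509 in lung and 391 in trachea on one probe set and 79.8 and 110 on the other, with the direction turned. Hc read 183 in lung and 60.7 in trachea, and the brighter Lyz2 probe set 172 and 32.4. For both, only the lung value was above the pseudocount of 84.3, so no fold is given. The other Lyz2 probe set read 24.5 and 16.7, and Chil1 4.6 and 18.1, all below the pseudocount. A probe set shared by Lyz1 and Lyz2, which is outside the rule, read 27.2 and 21.4. The E11.5 and E18.5 arrays hold different probes, and no fold between the ages was made.

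**Figure D5:**
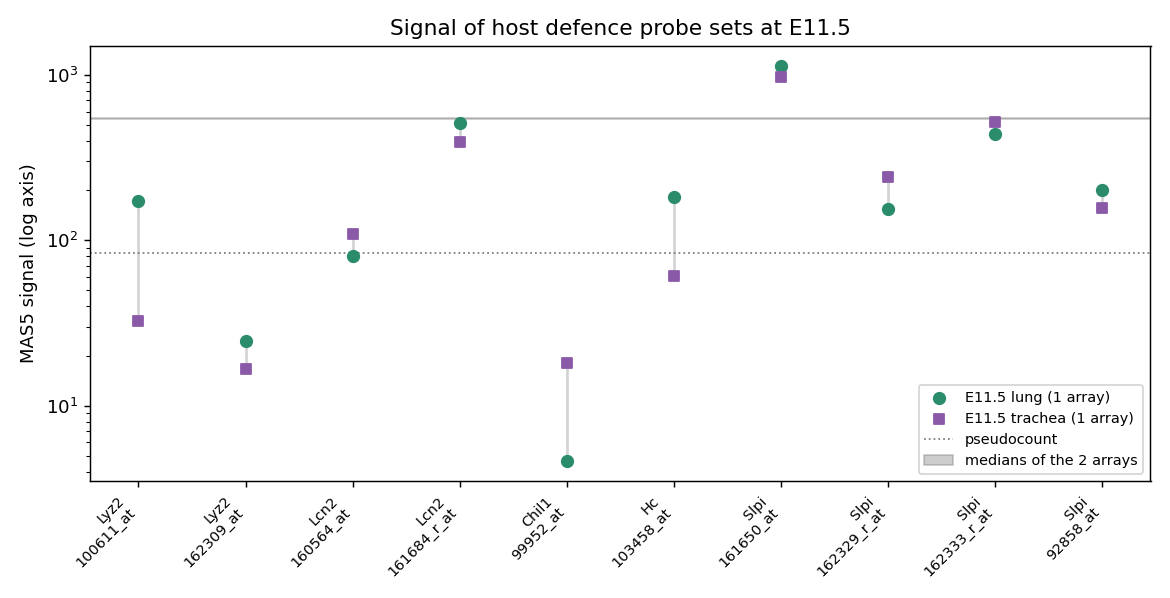
MAS5 signal (log axis) of the 10 probe sets of Lyz2, Lcn2, Chil1, Hc and Slpi at E11.5, in lung (circles) and trachea (squares), with 1 array each; the grey band marks the array medians of 541 and 545 and the dotted line the pseudocount of 84.3. Only 1 Slpi probe set lies above the medians in both samples.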

How the data were processed

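RNA from 8 samples was hybridised to 1-colour Affymetrix arrays. The deposited values are MAS5 intensities, per the submitters' processing notes, with no version stated. The values show a linear scale and a 2% trimmed mean of 1500 on each array. Detection calls were not used here, and replicates were not pooled. The labels do not say which lungs shared a litter, so the lungs may not be independent, while the p-values treat them as if they were.

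Signals were analysed as log2(signal + pseudocount), the 20th percentile of each table (86.4 at E18.5 and 84.3 at E11.5), which shrinks changes of dim genes. The probe set of highest mean stood for its gene, and genes whose mean was under the 40th percentile of all probe sets were left out. Array annotation gave 1 symbol to 34945 of 45037 E18.5 probe sets, several to 932 and none to 9160. Of 12422 E11.5 probe sets, 10833 had 1 symbol, 396 several and 1193 none. Bitransgenic and control lungs were compared in R 4.3.3 by limma 3.58.1 (lmFit, eBayes with trend, two-sided, Benjamini-Hochberg over all genes or all probe sets, threshold 0.05). The fit was also run on simulated data that meet its model by design, which is no test of the calls given here. Replicates were numbered in accession order and pair nothing. Alignment used Biopython 1.88, and figures matplotlib 3.10.9. At E11.5 a gene counted as apart above 2-fold with its higher signal above the median. Members, lists, motifs and alternatives were chosen with earlier results of these data known. Genes named from a pathway list were those called and the 3 with the smallest p, those named from a cell type list were its defining markers, and further names were chosen after their values were seen. Protein sequences were not used here.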

Additional observations from a re-analysis of the deposited data

How the results depend on the processing

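The count of members lower at E18.5, 8, was 3 to 8 when 1 array was left out, and 4 when the Actb ratio was a covariate. It was 8 under median centring, quantile normalization, both other pseudocounts, the filter at the 60th percentile (where Slpi was not fitted), averaged probe sets per gene and array weights. No member was called higher in any of the 16 fits. The count of member probe sets lower, 11, was 4 to 10 when 1 array was left out (4 without control 2 and 7 without bitransgenic 2), 6 with no filter, 6 with no intensity trend and 3 with the Actb ratio, which costs 1 residual degree of freedom. The count of all genes called, 85, was 22 to 97 when 1 array was left out (22 without control 2, 41 without bitransgenic 1 and 36 without bitransgenic 3), 20 with the Actb ratio and 1339 with array weights, where the weights did not converge. The cause of these shifts was not tested. The change of Slpi was -0.017 under median centring, -0.014 under quantile normalization, -0.0024 with a pseudocount 4 times as large, -0.18 with array weights, -0.24 with the Actb ratio and -0.19 to 0.13 when 1 array was left out, none of them called. At E11.5, 0 members counted as apart in all 8 settings run, but the brightness rule left only 1 of the 5 to compare, and without that rule Lyz2 (172 against 32.4) would be past 2-fold. Signals near the pseudocount limit the dim Lyz1 probe set, and the number of arrays limits the precision.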
